A study of Homo sapiens with 24 samples.

Results

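B-cell identity is held by a small set of DNA-binding proteins, and the genes of 10 of them were followed here in a Burkitt lymphoma cell line. The genes were PAX5, BCL6, EBF1, POU2AF1, POU2F2, SPIB, TCF3, IKZF1, IKZF3 and PRDM1. Every probe set whose only gene symbol in the platform annotation was one of these genes was taken, which gave 49 of the 54613 probe sets that are not controls. The 10 genes stand among 19775 genes with a probe set of their own. Of the 49 probe sets, 42 had a mean log2 intensity above 6.108, the median of all probe sets, and were tested. The dimmest of these was PAX5 206802_at at 6.11, and the brightest of the 7 left out was TCF3 213809_x_at at 5.69.

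The line, P3HR1, is established, comes from a Burkitt lymphoma and is infected with Epstein-Barr virus. The cells held the doxycycline-inducible vector pRTS1, which made either GFP together with the precursor of miR-28 (miR-28 cells) or GFP alone (control cells). The 4 groups of 6 arrays were miR-28 and control cells after 12 h of doxycycline, and miR-28 and control cells after 24 h. Each group held 3 inductions of bulk population A and 3 of bulk population B. All groups were induced and all carried the vector, and no uninduced cells were analysed here. The labels state the doxycycline dose as 0.1 ug/ml in one field and 1 ug/ml in another, alike for all groups. Each genotype rests on 2 bulk populations, and the spread behind a p-value is therefore mostly that of repeated inductions, with little from separately made populations. Nothing in the labels pairs the letters A and B across genotypes.

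In B cells, EBF1, TCF3 and PAX5 switch on the genes of the B lineage and hold other fates off. POU2F2 and its coactivator POU2AF1 act at octamer elements of immunoglobulin genes, SPIB is an ETS-family activator, and IKZF1 and IKZF3 are zinc-finger proteins of the Ikaros family. BCL6 is the repressor that sets the germinal centre state, from which Burkitt lymphoma derives, and PRDM1 drives plasma cell differentiation and silences BCL6 and PAX5. A microRNA lowers the level or translation of messages that pair with its seed.

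The 3p strand of the microRNA whose precursor was induced in the miR-28 cells is shown first, because the seed is the part of a microRNA that pairs with its targets. The mature 3p strand of human miR-28, from RefSeq (build GRCh38.p14, chr3:188688834-188688855, plus strand), is printed with bases 2 to 8, the seed, in capitals.
hsa-miR-28-3p: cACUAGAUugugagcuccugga
The 5p strand and the hairpin are named only. No level of either strand was read here, and which of them acted was not tested.

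Promoter windows of 300 bases, 250 before and 50 after the start of the gene in RefSeq (GRCh38.p14), were found for 8 of the 10 genes, in 12 windows. The window of EBF1 and the first of the 2 windows of BCL6 are printed, since these are the genes of which every tested probe set lay lower in miR-28 cells at 12 h and at least 3 had an unadjusted p under 0.05. In BCL6 (chr3:187745419-187745718, minus strand) capitals mark the element TTCNNNGAA, which BCL6 protein binds and whose letters are also those of the STAT element. In EBF1 (chr5:159097907-159098206, minus strand) capitals mark the E-box CAGCTG, the kind of site that TCF3 binds, and GAAAGTG, the core of the PRDM1 site.
BCL6: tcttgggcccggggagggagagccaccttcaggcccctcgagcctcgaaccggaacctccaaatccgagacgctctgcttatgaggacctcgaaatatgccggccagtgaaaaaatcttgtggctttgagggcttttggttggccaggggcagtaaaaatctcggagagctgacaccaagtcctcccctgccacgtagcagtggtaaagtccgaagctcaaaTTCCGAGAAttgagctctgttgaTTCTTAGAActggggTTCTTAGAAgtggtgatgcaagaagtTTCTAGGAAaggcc
EBF1: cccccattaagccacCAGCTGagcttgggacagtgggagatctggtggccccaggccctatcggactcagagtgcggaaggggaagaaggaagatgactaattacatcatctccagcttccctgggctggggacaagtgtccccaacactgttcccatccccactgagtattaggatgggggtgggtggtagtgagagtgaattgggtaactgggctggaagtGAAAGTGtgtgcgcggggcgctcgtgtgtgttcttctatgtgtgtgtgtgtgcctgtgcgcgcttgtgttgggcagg
On both strands, TTCNNNGAA occurred in 7.66% of 35116 windows of this length, and 7 of them (0.0199%) held at least 4 copies, as the printed BCL6 window does. The other BCL6 window (chr3:187736452-187736751, minus strand) has none. CAGCTG occurred in 17.9% and GAAAGTG in 4.68% of all windows. The EBF1 window also holds TTCCCA, the Ikaros core TGGGAA read on the other strand, which 24% of windows hold. The octamer ATGCAAAT was in none of the 12 windows of these genes and in 1.77% of all. These matches are letters in a window and were not set against any binding data.

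Arrays had a median intensity between 73.2 and 93.2, and arrays of the same group correlated across probe sets with an r of 0.94 to 0.96. For ACTB, the log2 ratio of 3' to 5' control signal exceeded 1 on 2 arrays, and was at most 0.87 on the others. These were miR-28 induction B2 at 12 h (1.05) and control induction B2 at 24 h (1.59). All 5 measured B-cell markers were bright, with CD79A at a mean intensity of 12600 and MS4A1 at 18600. The T-cell, myeloid, NK-cell and fibroblast and epithelial markers had medians of 30.5 to 63.6, and 1 of 7, 2 of 5, 1 of 5 and 1 of 6 of them lay above the filter in that order. The summed NK-cell markers were 267 to 405 in miR-28 cells against 126 to 246 in control cells at 12 h, which do not overlap, though 4 of the 5 genes were below the filter. Whether they played a part in any result at 12 h was not tested.

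The brightest probe sets of 9 genes averaged at least 1000 and that of PRDM1 did not, as the plot of the 10 genes by array shows. Intensities can be compared between groups within a probe set and not between probe sets, since probes differ in how well they bind. The brightest probe set of POU2AF1, 205267_at, ranged from 14306 to 21232 over the 24 arrays. The only PRDM1 probe set above the filter, 217192_s_at, ranged from 33.0 to 312. Within a group, the brightest probe set of a gene had a standard deviation of 0.09 to 0.22 on the log2 scale for all genes but PRDM1, where it was 0.81.

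**Figure D1:**
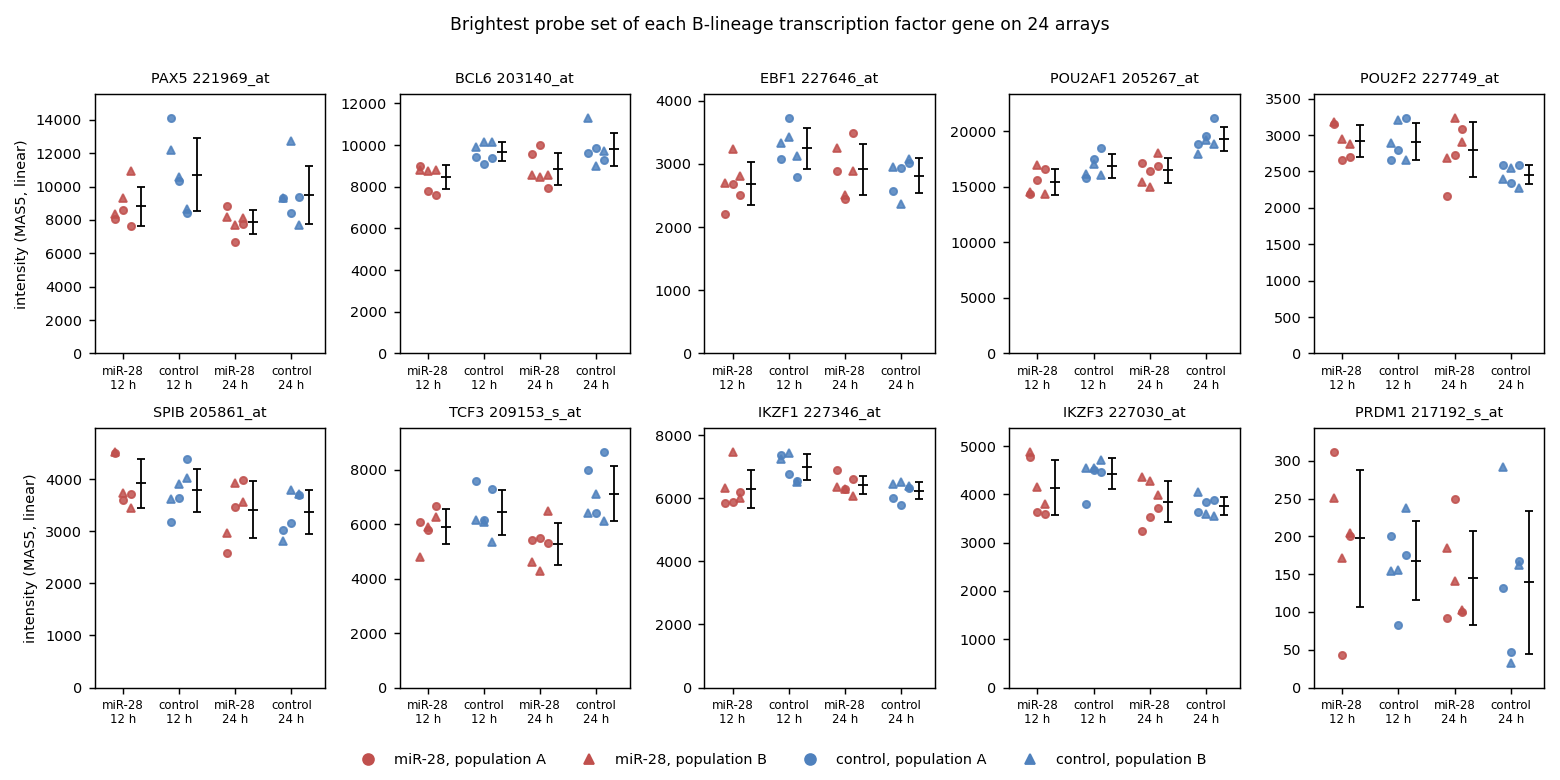
Linear MAS5 intensity (y axis, from 0) of the brightest probe set of each gene on the 24 arrays, with miR-28 cells left of control cells at 12 h and at 24 h (x axis). Circles are inductions of population A, triangles those of population B, and the bar beside each group is the mean with its SD (n = 6); at 24 h the TCF3 mean was 5266 in miR-28 cells and 7124 in control cells.

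At 12 h of induction, most of these factors lay slightly lower in miR-28 than in control cells, and no difference passed the test. In such bulk samples, fewer cells with a message and less of it per cell cannot be told apart. Of the 42 probe sets, 28 (66.7%) lay below 0, with a median log2 difference of -0.08, against 49.3% and a median of 0 for all 27306 tested. The limma test called 0 of the 42 at an adjusted p under 0.05, where it called 0.165% of all probe sets. Without adjustment 8 of the 42 (19%) had a p under 0.05, all of them lower, against 8.02% of all probe sets in either direction. They were the 3 probe sets of BCL6, 3 of the 4 of EBF1, the bright one of PAX5 and the bright one of IKZF1. Probe sets of the same gene are repeated readings of that gene. The shares of member probe sets, here and in the later comparisons, are therefore not shares of independent observations.

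BCL6, the germinal centre repressor, was lower at all 3 of its probe sets at 12 h. The brightest, 203140_at, had a lowest, median and highest intensity of 7617, 8777 and 8988 in miR-28 cells, against 9093, 9687 and 10165 in control cells. Every miR-28 array was thus below every control array, which held for no other member in that comparison. Arrays of both groups were set apart in that direction for 0.37% of all probe sets, and in the other direction for 0.3%. The log2 difference was -0.20 ± 0.07 (SE, n = 6 arrays each), with a limma adjusted p of 0.427. BCL6 215990_s_at had 1414, 1625 and 1708 in miR-28 cells against 1521, 2112 and 2495 in control cells, a difference of -0.33 ± 0.11 (limma adjusted p = 0.378). BCL6 228758_at had 575, 681 and 903 in miR-28 cells against 791, 923 and 1055 in control cells, a difference of -0.39 ± 0.14 (limma adjusted p = 0.452). These ranges overlap, and the probe sets of BCL6 measure the same message, so they are not 3 independent observations.

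At 24 h BCL6 was again below 0 at all 3 probe sets, and none was called. At both times its 3 signs were the same with median centring and with quantile normalization. For 203140_at the lowest, median and highest intensities were 7946, 8573 and 9986 in miR-28 cells, against 9005, 9665 and 11317 in control cells, a difference of -0.15 ± 0.07 (limma adjusted p = 0.317). For BCL6 228758_at they were 565, 608 and 962 in miR-28 cells, against 795, 918 and 1233 in control cells. Its difference of -0.45 ± 0.14 had an adjusted p of 0.101 by limma, and without miR-28 population A induction 2 it was -0.54 with an adjusted p of 0.0437. BCL6 228758_at was called in only 1 of 37 other settings, and its limma adjusted p reached 0.709 among them. BCL6 215990_s_at differed by -0.07 ± 0.11, with a 95% confidence interval of -0.30 to 0.17. It kept its sign in 36 of 37 other settings, where its highest value was 0.11. Its means in populations A and B were 1889 and 2029 in miR-28 cells, against 2226 and 1916 in control cells. The 2 other BCL6 probe sets correlated with the brightest over the 24 arrays with an r of 0.56 and 0.69, a description over arrays that share their groups.

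EBF1, which opens the B-lineage programme with TCF3, was below 0 at all 4 probe sets at 12 h, and at 1 of 4 at 24 h (232204_at, -0.04, which was 0.02 with median centring). The brightest, 227646_at, had a lowest, median and highest intensity of 2202, 2692 and 3233 in miR-28 cells at 12 h, against 2793, 3228 and 3733 in control cells. The groups overlap, and the difference was -0.28 ± 0.10 (limma adjusted p = 0.449). EBF1 232204_at differed by -0.23 ± 0.10, 229487_at by -0.43 ± 0.21 and the dim 233261_at by -1.01 ± 0.42 on the log2 scale, none of them called. At 24 h EBF1 227646_at had 2450, 2889 and 3491 in miR-28 cells against 2360, 2942 and 3072 in control cells. The difference there was 0.04 ± 0.10, with a 95% confidence interval of -0.17 to 0.25. The change of the EBF1 227646_at difference between times, 0.32 ± 0.15, had a limma adjusted p of 0.847.

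PAX5, the guardian of B-cell commitment, had a bright probe set that lay lower at both times without passing the test. PAX5 221969_at had a lowest, median and highest intensity of 7661, 8462 and 10946 in miR-28 cells at 12 h, against 8412, 10456 and 14128 in control cells. At 24 h it had 6674, 7945 and 8851 in miR-28 cells, against 7685, 9315 and 12728 in control cells. The groups overlap at each time. The differences were -0.27 ± 0.12 at 12 h (limma adjusted p = 0.605) and -0.25 ± 0.12 at 24 h (limma adjusted p = 0.334). The second PAX5 probe set, 206802_at, lies just above the filter and gave 0.59 ± 0.47 at 24 h, an interval of -0.38 to 1.56 that says little about the gene.

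**Figure D2:**
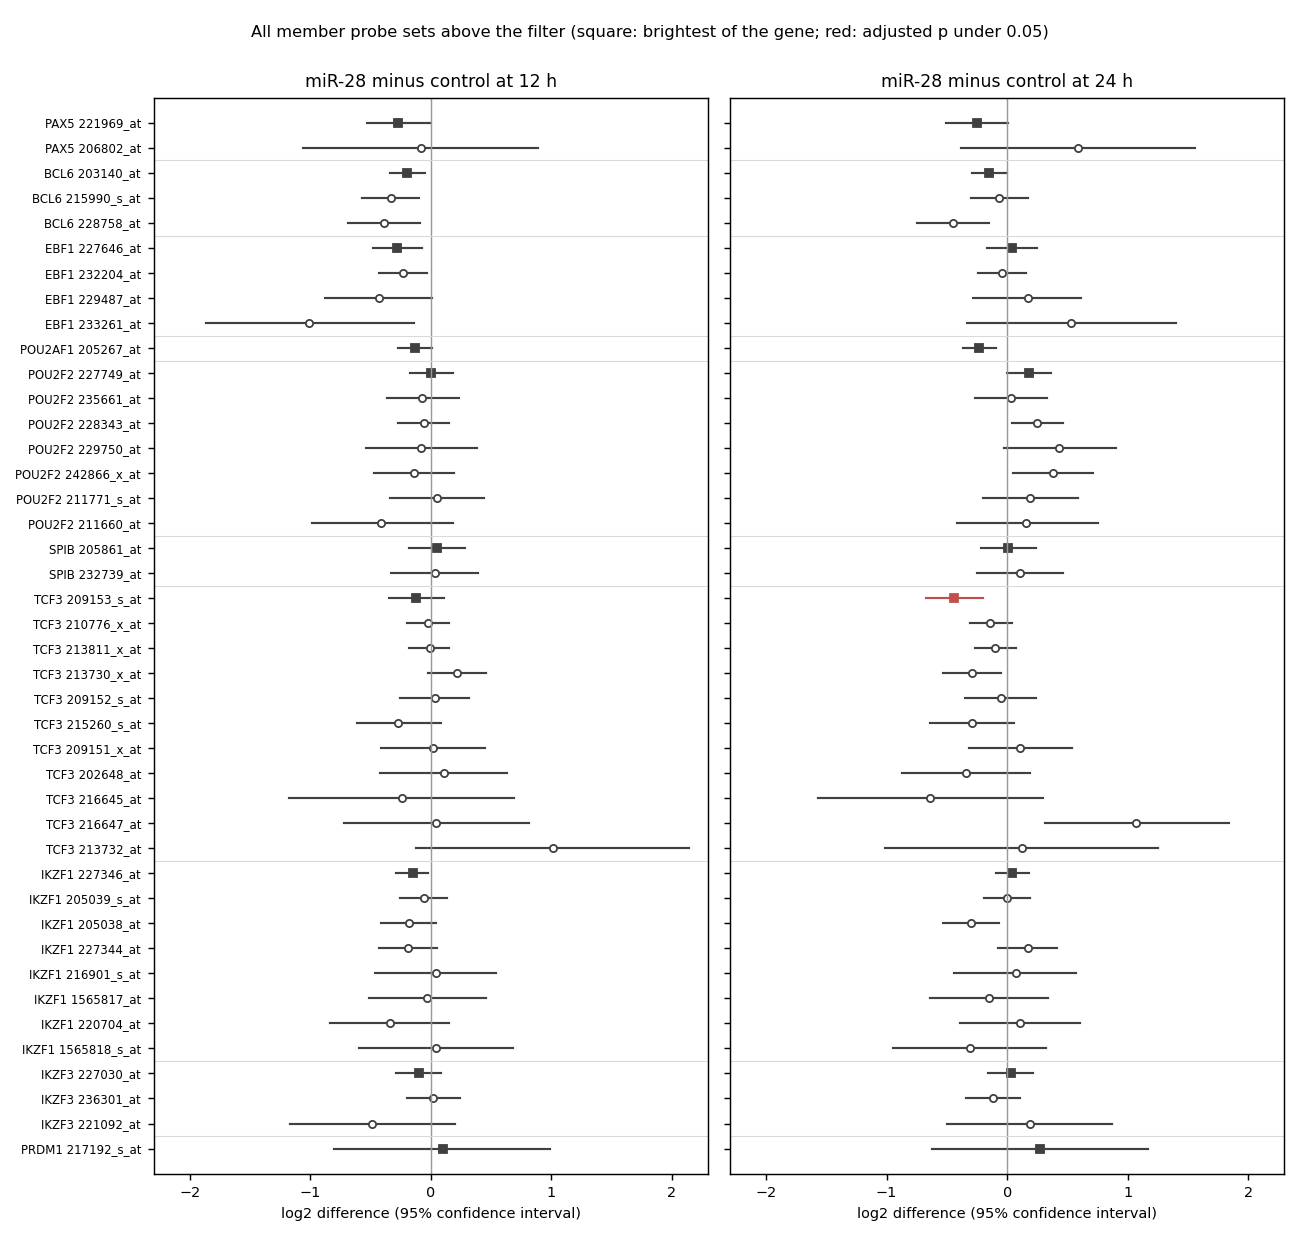
Log2 difference, miR-28 minus control, with its 95% confidence interval (x axes) for the 42 tested probe sets grouped by gene (rows), at 12 h on the left and 24 h on the right. Squares mark the brightest probe set of each gene and red the only called one, TCF3 209153_s_at at 24 h (-0.44); at 12 h 28 of the 42 points lie left of 0.

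At 24 h, TCF3 was the only gene of the 10 with a called probe set. TCF3 encodes the E-box proteins E12 and E47, which act with EBF1 and, in Burkitt lymphoma, are released by loss of the inhibitor ID3. Its brightest probe set, 209153_s_at, had a lowest, median and highest intensity of 4269, 5375 and 6478 in miR-28 cells, against 6116, 6766 and 8669 in control cells. All miR-28 arrays but the highest lay below the lowest control array, so the groups overlap. The mean was 5266 ± 771 in miR-28 cells and 7124 ± 1020 in control cells (SD, n = 6 each). TCF3 209153_s_at differed by -0.44 ± 0.11 on the log2 scale (95% confidence interval -0.67 to -0.20), with a limma adjusted p of 0.0369. That is 1 of the 42 member probe sets, where limma called 2.75% of all 27306, so the share called is near the background.

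The call rests on several single arrays and on the scale. Among 38 other settings the difference kept its sign in all and ranged from -0.50 to -0.37, and it was called in 24, with adjusted p from 0.0204 to 0.469. Centring arrays on their medians gave -0.38 with an adjusted p of 0.109, and without the 2 arrays of raised ACTB ratio the adjusted p was 0.0621. The call was lost without control induction A1, A3 or B2 at 24 h and without miR-28 induction A1, A2, A3, B1 or B2 at 24 h, with adjusted p up to 0.0978. Within populations A the difference was -0.50 (adjusted p = 0.309) and within populations B -0.38 (adjusted p = 0.469), with 3 arrays in each group. In control cells this TCF3 probe set was itself higher in population A than in population B, with means of 7701 and 6546 at 24 h, a log2 difference over both times of 0.24 ± 0.11 (limma adjusted p = 0.636).

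The other 10 tested TCF3 probe sets were not called at 24 h and ranged from -0.64 to 1.07. Counting the called one, 8 of the 11 lay below 0. TCF3 210776_x_at had 4478, 5338 and 5710 as its lowest, median and highest intensity in miR-28 cells, against 5256, 5478 and 6365 in control cells. Its difference of -0.14 ± 0.09 had an interval of -0.31 to 0.04, and that of 213811_x_at was -0.10 ± 0.08. TCF3 213730_x_at, with 2862, 3230 and 3812 in miR-28 cells against 3558, 3938 and 5022 in control cells, differed by -0.29 ± 0.12 (limma adjusted p = 0.197). The suffix x_at marks probe sets whose probes may also bind other sequences.

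TCF3 209152_s_at, another of its bright probe sets, showed a difference of -0.05 ± 0.14 at 24 h. The one far to the other side, 216647_at, is dim, with 127 to 239 in miR-28 cells and 38.6 to 149 in control cells. Over the 24 arrays the other TCF3 probe sets correlated with 209153_s_at with an r between -0.16 and 0.53. The probe sets of this gene thus gave different readings. At 12 h TCF3 209153_s_at differed by -0.12 ± 0.11 (limma adjusted p = 0.884) and the other 10 by -0.27 to 1.01. For 209153_s_at the change of the difference between times was -0.32 ± 0.17 (limma adjusted p = 0.889). From 12 h to 24 h it changed by -0.17 ± 0.12 in miR-28 cells (limma adjusted p = 0.522). In control cells the change was 0.14 ± 0.12 (limma adjusted p = 0.592), on 24 h arrays that also enter the comparison of genotypes at 24 h.

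**Figure D3:**
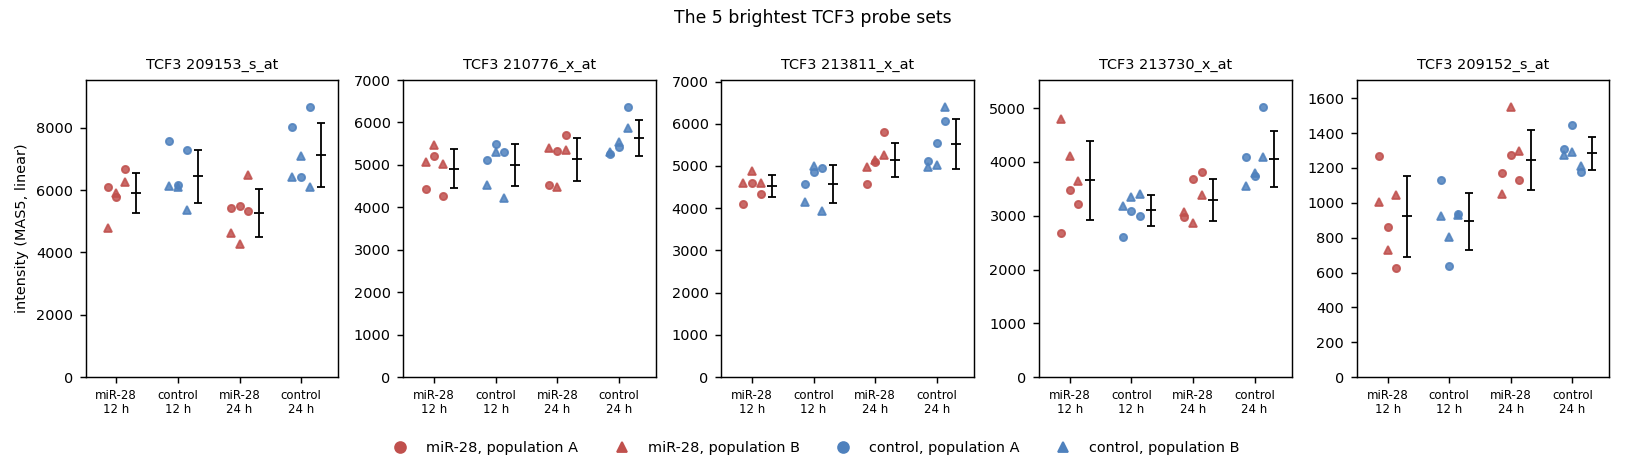
Linear MAS5 intensity (y axes, from 0) of the 5 brightest TCF3 probe sets on the 24 arrays, by genotype and time (x axes); circles are population A, triangles population B, and bars the mean with its SD (n = 6). In 209153_s_at the mean at 24 h was 5266 in miR-28 cells and 7124 in control cells, and in 209152_s_at it was 1246 in miR-28 cells and 1285 in control cells.

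Outside the 10 genes, the probe sets whose log2 intensity followed TCF3 209153_s_at most closely over the 24 arrays, among 22032 probe sets of other genes, were CASP2 226032_at (r = 0.796), KPNB1 208974_x_at (0.775) and NFIA 224970_at (0.768). At 24 h CASP2, a caspase gene, differed by -0.31 ± 0.07, the importin gene KPNB1 by -0.52 ± 0.08 and NFIA, a transcription factor gene, by -0.62 ± 0.12. These 3 were picked for following that probe set over the same arrays, so their differences at 24 h are a description.

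POU2AF1, the B-cell coactivator of octamer factors, lay lower at 24 h at its only tested probe set and missed the threshold. POU2AF1 205267_at had a lowest, median and highest intensity of 14962, 16628 and 18059 in miR-28 cells, against 17942, 19073 and 21232 in control cells. The ranges overlap only between the highest miR-28 array and the lowest control array. The difference of -0.23 ± 0.07 (95% confidence interval -0.37 to -0.09) had a limma adjusted p of 0.0695. With each gene represented by its brightest probe set alone, fewer tests were adjusted for and the adjusted p was 0.032. It was called in only 1 of 38 other settings, and its limma adjusted p reached 0.565 among them. At 12 h it had 14306, 15113 and 16942 in miR-28 cells against 15751, 16620 and 18529 in control cells, a difference of -0.13 ± 0.07 (limma adjusted p = 0.668).

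POU2F2, the octamer-binding partner of POU2AF1, lay above 0 at all 7 probe sets at 24 h, also with median centring or quantile normalization, and none was called. The smallest difference, 0.03 for 235661_at, kept its sign in 31 of 37 other settings, where its lowest value was -0.07. POU2F2 228343_at had a lowest, median and highest intensity of 1274, 1381 and 1594 in miR-28 cells, against 1099, 1166 and 1239 in control cells. Every miR-28 array was above every control array, which held for this member alone, and arrays were set apart that way for 1.11% of all probe sets and the other way for 1.36%. The difference was 0.25 ± 0.10 (limma adjusted p = 0.203). The brightest POU2F2 probe set, 227749_at, had 2165, 2815 and 3240 in miR-28 cells against 2278, 2471 and 2584 in control cells, a difference of 0.18 ± 0.09 (limma adjusted p = 0.309). POU2F2 242866_x_at differed by 0.38 ± 0.16 and 229750_at by 0.43 ± 0.22, and the remaining 3 by 0.03 to 0.19. At 12 h 5 of the 7 lay below 0, and the brightest differed by 0.00 ± 0.09.

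SPIB, an activator of B-cell receptor genes, passed the test at neither probe set. SPIB 205861_at had a lowest, median and highest intensity of 2587, 3510 and 3974 in miR-28 cells at 24 h, against 2822, 3424 and 3793 in control cells. The difference was 0.01 ± 0.11, with a 95% confidence interval of -0.22 to 0.24, and at 12 h 0.05 ± 0.11. SPIB 232739_at differed by 0.11 ± 0.17 at 24 h and by 0.03 ± 0.17 at 12 h.

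IKZF1 (Ikaros), which cooperates with PAX5 and EBF1 in B-cell precursors, gave mixed readings. IKZF1 227346_at had a lowest, median and highest intensity of 5844, 6092 and 7472 in miR-28 cells at 12 h, against 6527, 7012 and 7425 in control cells, a difference of -0.15 ± 0.07 (limma adjusted p = 0.550). At 24 h it had 6077, 6336 and 6879 in miR-28 cells against 5798, 6344 and 6510 in control cells, a difference of 0.04 ± 0.07. IKZF1 205038_at had 862, 1249 and 1413 in miR-28 cells at 24 h against 1311, 1478 and 1663 in control cells. Its difference of -0.30 ± 0.11 had a limma adjusted p of 0.155. The other 6 tested IKZF1 probe sets lay between -0.31 and 0.17 at 24 h, and between -0.34 and 0.04 at 12 h.

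IKZF3 (Aiolos), the relative that follows IKZF1 in maturing B cells, did not pass the test at any probe set. IKZF3 227030_at had 3241, 3849 and 4350 as its lowest, median and highest intensity in miR-28 cells at 24 h, against 3558, 3736 and 4042 in control cells, a difference of 0.03 ± 0.09 (95% confidence interval -0.16 to 0.21). At 12 h it differed by -0.10 ± 0.09. IKZF3 236301_at differed by -0.12 ± 0.11 at 24 h and by 0.02 ± 0.11 at 12 h. The dim IKZF3 221092_at differed by 0.19 ± 0.33 at 24 h and by -0.49 ± 0.33 at 12 h.

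PRDM1, the plasma cell factor, was dim throughout. PRDM1 217192_s_at had a lowest, median and highest intensity of 92.2, 121 and 250 in miR-28 cells at 24 h, against 33.0, 147 and 292 in control cells. The difference of 0.27 ± 0.43 had an interval of -0.62 to 1.17, so smaller changes of PRDM1 could not be resolved, and at 12 h it differed by 0.10 ± 0.43. Both other PRDM1 probe sets lay below the filter.

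The intervals give the resolution of these arrays. For the 9 genes whose brightest probe set averaged at least 1000, the 95% confidence intervals of the difference lay between -0.53 and 0.28 at 12 h and between -0.67 and 0.36 at 24 h. At 24 h, 10 of the 42 probe sets had an unadjusted p under 0.05, 6 lower and 4 higher, or 23.8% against 15.7% of all. The median difference of the 42 was 0.03, against 0.01 for all probe sets. The 7 probe sets below the filter, 3 of TCF3, 2 of PRDM1 and 1 each of POU2AF1 and IKZF1, were called in no comparison when the filter was dropped.

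No change of the miR-28 difference between 12 h and 24 h passed the test. Limma called 0 of the 42 probe sets and 0% of all 27306, with 5 of 42 and 1588 of all at an unadjusted p under 0.05. The smallest of the 5 was that of TCF3 213730_x_at, whose difference was 0.22 at 12 h and -0.29 at 24 h, a change of -0.51 ± 0.17 (unadjusted p = 0.00642, limma adjusted p = 0.713). The other 4 were 2 probe sets each of EBF1 and POU2F2.

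With time of induction, limma called no member in miR-28 cells and 1 in control cells, again a TCF3 probe set but a different one. TCF3 209152_s_at had a lowest, median and highest intensity of 628, 932 and 1271 in the 12 h arrays of miR-28 cells, and 1051, 1222 and 1550 in their 24 h arrays, which overlap, with a difference of 0.46 ± 0.15 (limma adjusted p = 0.109). In control cells it had 640, 928 and 1131 at 12 h, and 1176, 1284 and 1446 at 24 h, every 24 h array above every 12 h array. There it rose by 0.54 ± 0.15 (limma adjusted p = 0.0469). In miR-28 cells 0 of the 42 were called, where 1.88% of all probe sets were called. There 5 (11.9%) had an unadjusted p under 0.05, against 15.4% of all. In control cells 1 of the 42 was called, where 3.09% of all were called, and 13 (31%) had an unadjusted p under 0.05, against 16.7% of all. The call in control cells stands close to the threshold. It was kept in 10 of 38 other settings, among them 5 of the 24 that left out 1 array, and lost under median centring and without the 2 arrays of raised ACTB ratio.

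No member was higher or lower at 24 h on every array of the miR-28 cells, where 1.32% of all probe sets were higher and 1.25% lower in that way. In control cells 2 were higher and 3 lower on every array, against 1.51% and 1.3% of all probe sets. The second higher one was TCF3 213730_x_at (0.38 ± 0.12, limma adjusted p = 0.0890). The lower ones were POU2F2 227749_at (-0.24 ± 0.09), IKZF1 227346_at (-0.16 ± 0.07) and SPIB 232739_at. SPIB 232739_at had 215, 402 and 533 at 12 h and 156, 275 and 322 at 24 h in miR-28 cells, which overlap, a difference of -0.55 ± 0.18 (limma adjusted p = 0.116). In control cells SPIB 232739_at had 344, 362 and 420 at 12 h and 191, 242 and 283 at 24 h, a difference of -0.62 ± 0.18 (limma adjusted p = 0.0618).

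From 12 h to 24 h, 4 of the 7 POU2F2 probe sets lay lower in miR-28 cells, none of them with an unadjusted p under 0.05, and all 7 lay lower in control cells, 5 of them with such a p. For POU2F2 227749_at the medians were 2910 at 12 h and 2815 at 24 h in miR-28 cells, and 2848 and 2471 in control cells. The control arrays at 24 h are also those against which the miR-28 cells were set at 24 h, so the higher POU2F2 values there and the lower ones with time in control cells share samples. The difference between the time courses was not called for any POU2F2 probe set (smallest limma adjusted p 0.828).

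No member passed the test between populations A and B in either genotype. In miR-28 cells limma called 0 of 42 and 0% of all, with 2 members (4.76%, against 4.8% of all) at an unadjusted p under 0.05, SPIB 232739_at and IKZF3 227030_at. In control cells it called 0 of 42 and 0.00366% of all, with 3 members (7.14%, against 7.42% of all) at an unadjusted p under 0.05, all of them TCF3 probe sets, among them 209153_s_at.

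Genes that work with these factors or answer to them were read from 4 lists, each gene at its brightest probe set. No list held a called gene at 12 h, where 0.0791% of the brightest probe sets of all 11380 tested genes were called higher and 0.185% lower. At 24 h these shares were 1.76% higher and 2.03% lower, and the small lists are read against them. Unlike the members, list genes were not followed under other settings or at their other probe sets. With population means as the unit, limma called 0 of all 27306 probe sets at 24 h. Of 28 partner and family factors 18 were tested, and at 24 h 1 was called lower and none higher, with a median of 0.07. That gene was MEF2C, a MADS-box factor of B cells, with a mean intensity of 6033 in miR-28 cells and 7205 in control cells (-0.26 ± 0.07, limma adjusted p = 0.0439). The E-protein inhibitor ID3 had 5187 in miR-28 cells and 4278 in control cells (0.26 ± 0.12, limma adjusted p = 0.274). Other partners had a smaller p than ID3 and were not called either. They were FOXO1 (-0.31 ± 0.10, limma adjusted p = 0.122), BCL6B (-1.29 ± 0.52, limma adjusted p = 0.21) and BCL11A (0.27 ± 0.12, limma adjusted p = 0.251). A link between ID3 and TCF3 was not tested. The plasma cell factor IRF4 lay below the filter.

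Of 17 B-lineage genes that PAX5, EBF1 or TCF3 are known to activate, 13 were tested, and 2 were called higher and none lower at 24 h. CD72, a B-cell coreceptor that PAX5 activates, had a mean of 3846 in miR-28 cells and 2873 in control cells (0.42 ± 0.08, limma adjusted p = 0.00444). BANK1, an adaptor of B-cell receptor signalling, had 1905 in miR-28 cells and 1477 in control cells (0.36 ± 0.07, limma adjusted p = 0.00511). The median of the 13 was 0.11. The largest difference of the 13 was that of CD24, which lay lower and was not called (-0.67 ± 0.20, limma adjusted p = 0.0815).

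Of 15 genes that BCL6 is known to repress, 9 were tested, with a median of -0.02, and 1 was called lower at 24 h while none was called higher. It was CHEK1, a DNA damage checkpoint kinase, with 2620 in miR-28 cells and 3281 in control cells (-0.34 ± 0.09, limma adjusted p = 0.0365). In the other direction, CD80 differed by 0.47 ± 0.14 and was not called (limma adjusted p = 0.0823). Of 11 plasma cell genes 9 were tested and none was called at 24 h, with a median of 0.07. The 2 with the smallest p were the receptor gene CD27 (0.29, limma adjusted p = 0.0901) and JCHAIN, the joining chain of polymeric antibodies (0.35, limma adjusted p = 0.258).

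**Figure D4:**
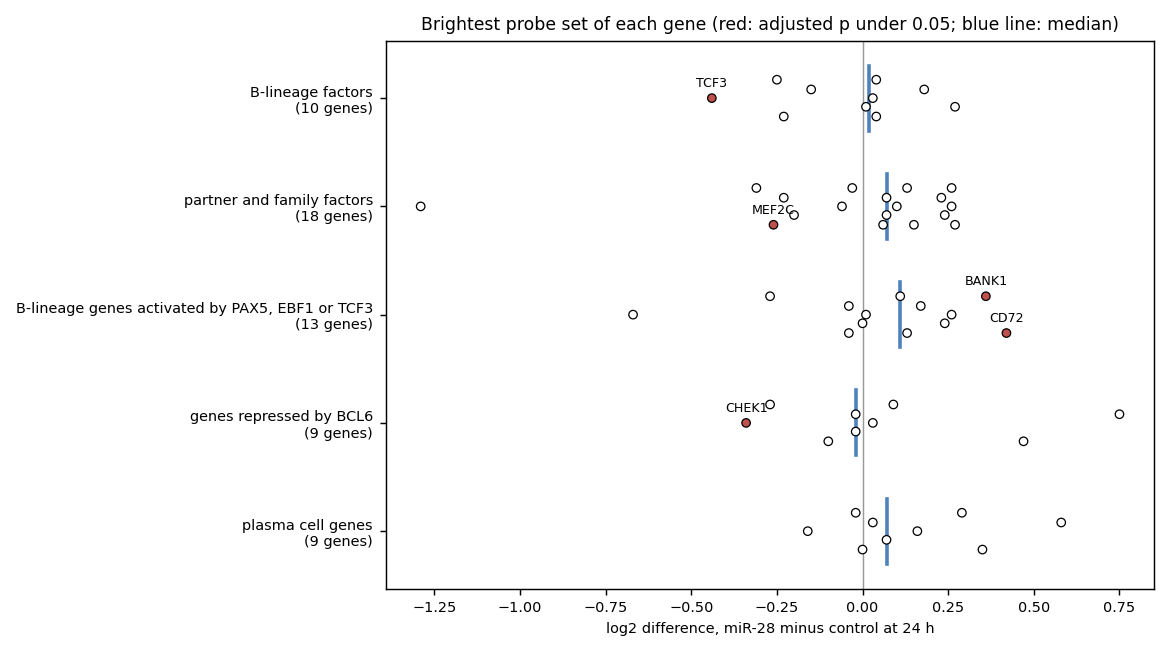
Log2 difference, miR-28 minus control at 24 h (x axis), at the brightest probe set of each of the 10 B-lineage factors and of the tested genes of 4 lists (rows); red points are called and named, and blue lines are medians. The called points are TCF3 (-0.44), MEF2C (-0.26), BANK1 (0.36), CD72 (0.42) and CHEK1 (-0.34), and the list medians lie between -0.02 and 0.11.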

How the data were processed

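RNA of 24 cultures was measured on Affymetrix arrays, from 6 ug of total RNA each, as the labels' protocols state. The authors deposited linear probe-set intensity made with MAS5, per the submitters' processing notes; its version and settings are not given in the sources used here. In each array the 2% trimmed mean was 500.07 to 500.08, so the authors' scaling was kept. Of 54675 probe sets, 62 controls were left out. By the platform annotation, 41091 had 1 gene symbol, 1801 several and 11721 none, and 54 could not be updated through a RefSeq gene table. No genome was used.

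Values were analysed as log2(intensity + 8), which understates changes of dim probe sets. Each probe set was tested on its own, over the 27306 above the median. A model of 4 group means was fitted in R 4.3.3 (limma 3.58.1, statmod 1.5.0), taking the 4 populations as a random block (consensus correlation -0.0249). Being below 0, this correlation slightly narrows the errors between genotypes, so the block does not guard against differences between populations. Without the block, limma called 282 probe sets higher and 336 lower at 24 h, against 348 and 403 with it. TCF3 209153_s_at was called either way. Tests were two-sided, adjusted by Benjamini-Hochberg over all probe sets, and called at an adjusted p under 0.05. A fit of 8 means compared populations A and B. Other settings are in the closing section. The fit without the population block was tested on simulated arrays with independent noise. Those arrays held no population differences, so they cannot show how 2 populations per genotype affect the calls. Arrays carry no read depth; their number sets the precision. The numbers of the inductions were not taken to pair the samples. Same-numbered arrays deviated from their group means together with an r of -0.107 to 0.063 over the tested probe sets. That shows no sign of pairing but cannot exclude it, since noise of single probe sets also lowers such an r. The members, lists, markers and tests were chosen with earlier results of these data known. All member probe sets above the filter were described; list genes were named if called at 12 h or 24 h (up to 4, or the 2 smallest p at 24 h), and for a called member gene the 3 most similar probe sets. ID3, FOXO1, BCL6B, BCL11A, IRF4, CD24 and CD80 were named after their values were seen.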

Additional observations from a re-analysis of the deposited data

Results flagged for a closer look

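Among 168 sets of 6 arrays, a member probe set in a group, 11 (6.55%) held an array far from the other 5, its gap to the nearest exceeding Dixon's limit for 6 samples. Chance alone gives about 1 in 20. Low arrays were POU2F2 228343_at in miR-28 cells at 12 h (A2, 1067, next 1350), SPIB 232739_at in miR-28 cells at 24 h (B3, 156, next 255), TCF3 216645_at in control cells at 24 h (B2, 29.0, next 167) and IKZF1 1565818_s_at in miR-28 cells at 24 h (A3, 74.8, next 216). So were IKZF3 227030_at in control cells at 12 h (A1, 3798, next 4461), IKZF3 221092_at in control cells at 12 h (A2, 159, next 255) and at 24 h (A3, 23.9, next 148), and PRDM1 217192_s_at in miR-28 cells at 12 h (A2, 43.2, next 173). High arrays were TCF3 215260_s_at in miR-28 cells at 12 h (A1, 718, next 455), IKZF1 227346_at in miR-28 cells at 12 h (B2, 7472, next 6335) and IKZF1 1565817_at in miR-28 cells at 24 h (B2, 514, next 245). Both arrays of raised ACTB ratio are among them, miR-28 B2 at 12 h (1.05) for IKZF1 227346_at and control B2 at 24 h (1.59) for TCF3 216645_at, and the part of that ratio was not tested.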

How the results depend on the processing

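The miR-28 against control differences of single members at 12 h and 24 h were compared under other settings. Of these, 3040 kept their side of the threshold and moved little, and 64 moved by the standard error of the difference or more. Another 14 lost a call and 2 gained one, and no called value changed sign. The 14 were all TCF3 209153_s_at at 24 h, and the 2 were POU2AF1 205267_at and BCL6 228758_at at 24 h. With time in miR-28 cells, SPIB 232739_at was called in 2 of 38 other settings and TCF3 209152_s_at in 1. With time in control cells, TCF3 209152_s_at kept its call in 10, and SPIB 232739_at was called in 4 and TCF3 213730_x_at in 1. Counts of called members were 8 at 12 h, 10 at 24 h, 5 for the change between times, 5 and 13 with time in miR-28 and control cells, and 2 and 3 between populations of miR-28 and control cells, when p was not adjusted. At 24 h the count was 0 with no filter, median centring, population means as the unit, populations A only, populations B only, or without the 2 arrays of raised ACTB ratio (a setting chosen after seeing the data), 2 with the brightest probe set of each gene, and 0 to 1 when 1 array was left out. With time in control cells it was 0 under the same 6 settings and with the brightest probe set of each gene, 2 with a mean intensity of at least 100 (SPIB 232739_at was added), and 0 to 1 when 1 array was left out. With time in miR-28 cells it was 0 to 1 when 1 array was left out. The cause of these changes was not tested, beyond the fewer arrays or different number of tests.

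A replicate block, which pairs arrays by a number that the data do not bear out as pairing, left TCF3 209153_s_at at -0.44 (adjusted p = 0.0263) and gave 1 call with time in miR-28 cells (SPIB 232739_at) and 1 in control cells, SPIB 232739_at in place of TCF3 209152_s_at. In each pair of groups 1 of 6 arrays correlated best with its own number. Over all probe sets, the 12 h comparison gave 12 higher and 33 lower as reported, 7 and 14 with no filter, 8 and 25 with median centring, 7 and 19 with the replicate block, and 0 with population means or within populations; leaving out 1 array gave 21 to 58 calls, fewest without control A2 at 12 h. The 24 h comparison gave 348 higher and 403 lower as reported, 117 and 185 with no filter, 425 and 198 with median centring, which moved the median of all by less than 0.1, 0 with population means, and 2 and 1 calls within populations A and B. With time, miR-28 cells gave 268 higher and 246 lower as reported, 50 and 47 with no filter, 529 and 66 with median centring, 0 with population means or within populations A, and 4 and 1 within populations B; leaving out 1 array gave 334 to 610, fewest without miR-28 B1 at 12 h. Control cells gave 433 and 410 as reported, 149 and 100 with no filter, 297 and 177 with median centring, 0 with population means or within populations A, and 1 and 2 within populations B; leaving out 1 array gave 493 to 903, fewest without control B1 at 12 h. Between populations of control cells, 1 call as reported became 3 with no filter, 10 with the brightest probe set of each gene and 0 to 9 when 1 array was left out, and in miR-28 cells 0 became 0 to 10.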
